A study of Homo sapiens with 4 samples.

Results

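The genes that build cholesterol and fatty acids were followed in the human neuroblastoma line SK-N-AS, an established cell line, as 33 genes in a sterol arm of 21 and a fatty acid arm of 12. The members were taken from a fixed list of pathway genes, each read from its brightest probe set with 1 gene symbol, and 30 of the 33 were measured, 20 in the sterol arm and 10 in the fatty acid arm, among 21448 probe sets tested. FDFT1, FADS1 and ACSL3 were not analysed here. Treated cells received BG-P400-TAT at 30 µM for 48 h and untreated cells received phosphate-buffered saline over that time, with 2 Affymetrix whole-transcript arrays per group. All cultures grew in IMDM with fetal bovine serum, a medium that itself supplies lipids. Per the series title, the compound is aimed at 2 targets, norepinephrine transport and αvβ3, an integrin that binds thyroid hormone. The design compares treated with control cells genome-wide.

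Cholesterol is made from acetyl-CoA through mevalonate, farnesyl diphosphate, squalene and lanosterol. Fatty acids are made from the same acetyl-CoA through malonyl-CoA and palmitate, which is then elongated, desaturated and esterified. Both arms are driven by the SREBP transcription factors, which SCAP escorts out of the endoplasmic reticulum when sterols are low and which INSIG proteins hold back when sterols are high. Tumour cells commonly make lipids of their own, and many enzymes of both arms are SREBP target genes.

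No member rose or fell past the test. None of the 30 passed at a limma adjusted p under 0.05, where 0 of 21448 probe sets did (0%), and none of the 30 had an unadjusted p under 0.05, against 5.08% of all probe sets. The smallest unadjusted p among the members was 0.0607. As a description of the arms, the 10 fatty acid genes had a median treated minus untreated difference of 0.20 on the log2 scale, the 20 sterol genes a median of 0.032, all probe sets a median of -0.0046 and the 9960 probe sets above the negative controls a median of 0.038. The limit for the negative controls was a log2 mean of 6.96, which 95% of the 612 negative-control sets did not pass, and single arrays were held to their own limit. Lists were described and not tested as lists, and nothing particular to either arm is read from these medians.

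Of the 30 measured members, 29 lay above the negative controls on all 4 arrays and MVD on none of them. Probe sets differ in how strongly they bind their targets, so levels of different genes are not ranked here. Untreated replicate 2 was the array farthest from the rest, with a median absolute log2 difference over all probe sets of 0.237 and 0.242 to treated replicates 1 and 2 and 0.244 to untreated replicate 1, whereas pairs without it differed by 0.193 to 0.208. Over the members alone it did not stand out. There it differed from treated replicates 1 and 2 by 0.145 and 0.180, and untreated replicate 1 did by 0.166 and 0.187. Untreated replicate 2 also had the highest negative-control limit, 7.64, and the fewest probe sets above their array's limit, 8808. On the other arrays the limit was 7.19 to 7.31 and the count 9413 to 9657. The line's adrenergic transcription factor genes HAND2, GATA2, GATA3, ISL1 and PHOX2A and all 7 mesenchymal markers were above the negative controls, whereas the catecholamine enzyme genes TH and DBH were below them on every array. Treated minus untreated differences had a median of 0.28 over the 7 mesenchymal markers, all 7 above 0, and of 0.16 over the 7 measured adrenergic markers, 6 above 0. Both medians were lower without untreated replicate 2, at 0.081, with 6 of 7 above 0, and -0.072, with 3 of 7 above 0. The -0.072 is the value of DBH, and TH stood at -0.078, both genes below the negative controls. Of the adrenergic transcription factor genes, PHOX2A had 0.42, GATA2 0.22 and GATA3 0.16 without that array, whereas HAND2 had -0.12 and ISL1 -0.17. PHOX2A, at 0.58 (95% interval 0.11 to 1.05; unadjusted p by limma 0.0228), was the marker whose interval did not cross 0. No marker passed the adjusted test, and their part in the lipid gene values was not tested. Of 12 measured markers of other cell types, 11 were below the controls on every array. The exception was PTPRC, a leukocyte phosphatase gene, at a log2 expression of 12.71 and 12.57 on the treated arrays and 12.75 and 12.80 on the untreated arrays. In bulk RNA, fewer cells of a kind and less RNA per cell cannot be told apart. The sources used here do not say how the cultures of a group were separated, so any p here reflects array-to-array spread, which may be technical, and precision is limited by having 4 arrays.

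**Figure D1:**
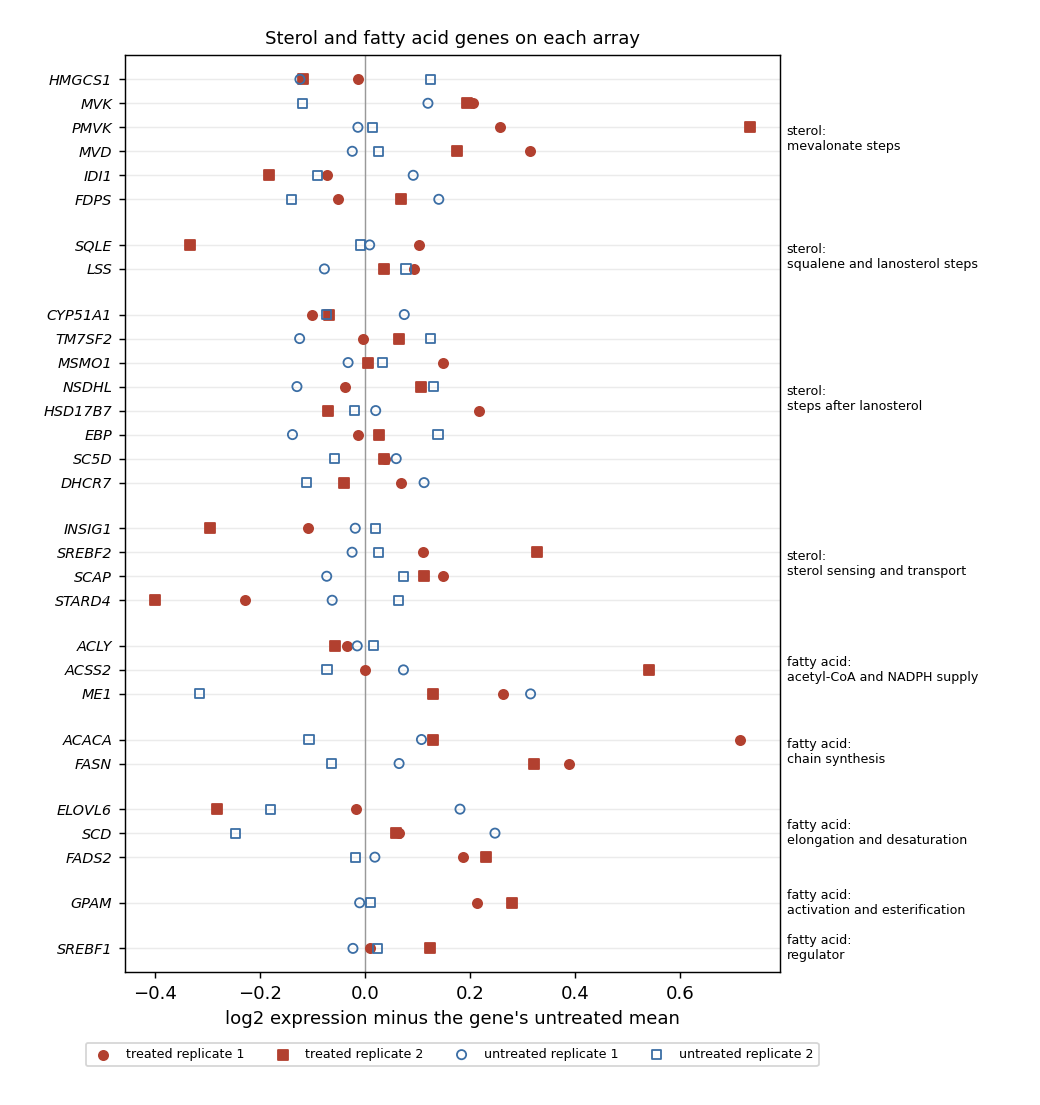
Log2 expression of each measured member on each array, as the distance from that gene's untreated mean (x axis), with genes grouped by arm and step down the page. Filled red marks are treated arrays and open blue marks untreated arrays. For each gene after lanosterol the treated and untreated marks overlap, whereas FASN, GPAM and FADS2 have both treated marks right of both untreated marks. MVD was below the negative controls on every array.

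The mevalonate steps lead from acetyl-CoA units to farnesyl diphosphate, and their 6 measured genes did not move together. HMGCS1, which encodes the cytosolic HMG-CoA synthase, had a log2 expression of 11.02 and 10.92 on the treated arrays and 10.91 and 11.16 on the untreated arrays. The treated values of HMGCS1 lie inside the untreated range, with a difference of -0.07 (95% interval -0.53 to 0.39) that was 0.058 without untreated replicate 2. MVK, mevalonate kinase, stood at 10.04 and 10.02 on the treated and 9.95 and 9.71 on the untreated arrays. The groups of MVK did not overlap, but the difference of 0.20 (interval -0.25 to 0.65) was smaller than the gap of 0.239 between the untreated arrays and was 0.080 without untreated replicate 2 and 0.32 without untreated replicate 1. PMVK, phosphomevalonate kinase, stood at 9.04 and 9.51 on the treated and 8.77 and 8.79 on the untreated arrays. PMVK had the largest difference of the 30 members, 0.49 (interval -0.03 to 1.02; adjusted p by limma 0.948), and 0.26 without treated replicate 2. MVD, mevalonate diphosphate decarboxylase, read 6.57 and 6.43 on the treated and 6.23 and 6.28 on the untreated arrays, all below the negative controls, so no fold is given for it. IDI1, the isopentenyl diphosphate isomerase, and FDPS, farnesyl diphosphate synthase, had differences of -0.13 (-0.22 to -0.037 with an array left out) and 0.0081 (-0.13 to 0.15), and their groups overlapped.

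The committed part of the sterol arm runs from squalene to cholesterol. SQLE, squalene epoxidase, a rate-limiting oxygen-dependent enzyme of the arm, stood at 12.30 and 11.87 on the treated arrays and 12.21 and 12.19 on the untreated arrays. The treated arrays of SQLE lie on either side of the untreated pair, and its difference of -0.12 (interval -0.63 to 0.39) was 0.10 without treated replicate 2. LSS, which closes oxidosqualene to lanosterol, stood at 10.55 and 10.49 on the treated and 10.38 and 10.53 on the untreated arrays. The groups of LSS overlapped, with a difference of 0.065 (interval -0.37 to 0.50) that was -0.013 without untreated replicate 1.

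The 8 genes that act after lanosterol showed the narrowest set of differences among the steps with more than 2 measured genes, from -0.08 to 0.077, with 7 higher and 1 lower in treated cells. The treated and untreated arrays of all 8 overlapped, and all 8 intervals lay within 1.5-fold in both directions, as did those of 41.6% of the probe sets above the negative controls. CYP51A1, the lanosterol demethylase, stood at 12.31 and 12.34 on the treated and 12.49 and 12.34 on the untreated arrays, a difference of -0.08 (interval -0.52 to 0.35) that was -0.010 without untreated replicate 1. DHCR7, the enzyme of the last step in the Kandutsch-Russell branch, stood at 12.37 and 12.26 on the treated and 12.42 and 12.19 on the untreated arrays. Both treated values of DHCR7 fall between its untreated values, and its difference of 0.014 (interval -0.44 to 0.47) turned sign under quantile normalization and cyclic loess. MSMO1, the C4-methylsterol oxidase, had 0.077, HSD17B7, a sterol ketoreductase, 0.073, NSDHL, a sterol dehydrogenase, 0.034, SC5D, the sterol C5-desaturase, 0.037, TM7SF2, a C14-sterol reductase, 0.030, and EBP, the sterol Δ8-Δ7 isomerase, 0.0063. Of these, MSMO1 stayed above 0 with each array left out (0.0046 to 0.15), and the others each fell below 0 without at least 1 array.

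Among the genes that sense and carry sterol, treated and untreated arrays did not overlap for any of the 4. Among all probe sets 33.1% had groups that did not overlap, 16.4% with treated arrays higher and 16.8% with treated arrays lower. SREBF2, which encodes the SREBP of cholesterol synthesis, stood at 11.00 and 11.21 on the treated arrays and 10.86 and 10.91 on the untreated arrays. SCAP, the SREBP escort, stood at 10.08 and 10.04 on the treated arrays and 9.86 and 10.00 on the untreated arrays. Both treated arrays were therefore above both untreated arrays for SREBF2 and for SCAP, with differences of 0.22 (interval -0.23 to 0.67) and 0.13 (interval -0.31 to 0.57). INSIG1, which retains the SREBP-SCAP complex and is itself an SREBP target, stood at 9.91 and 9.72 on the treated arrays and 10.00 and 10.03 on the untreated arrays. STARD4, a cytosolic sterol carrier, stood at 10.82 and 10.65 on the treated arrays and 10.99 and 11.12 on the untreated arrays. INSIG1 and STARD4 were lower on both treated arrays, by differences of -0.20 (interval -0.64 to 0.24) and -0.32 (interval -0.76 to 0.13). Limma adjusted p-values of the 4 genes were 0.948 to 0.985, so none of them passed. With an array left out, the differences were 0.11 to 0.33 for SREBF2, 0.056 to 0.20 for SCAP, -0.30 to -0.11 for INSIG1 and -0.40 to -0.23 for STARD4. The values nearest 0 came without treated replicate 2 for SREBF2, INSIG1 and STARD4 and without untreated replicate 1 for SCAP. For any gene whose groups do not overlap, leaving out an array cannot turn the sign. Such ranges, here and for other genes, therefore show size and add nothing on direction.

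Promoter sequence is shown for SREBF2, INSIG1 and STARD4, picked for the opposite directions of their differences, none of which passed the test. FDPS and HSD17B7 are added because their windows, like that of SREBF2, hold a sterol regulatory element-like match. Whether sequence goes with direction was not tested. The windows are the 250 bases before the RefSeq start on GRCh38.p14, written 5′ to 3′ on the gene's strand. Capitals mark TCACNCNAC, a loose form of the sterol regulatory element bound by SREBPs, and CCAAT, the box bound by NF-Y, or its complement ATTGG, on either strand. The window of SCAP, which like SREBF2 was higher on both treated arrays, held neither motif and is not shown.
SREBF2, chr22:41832855-41833104, plus strand: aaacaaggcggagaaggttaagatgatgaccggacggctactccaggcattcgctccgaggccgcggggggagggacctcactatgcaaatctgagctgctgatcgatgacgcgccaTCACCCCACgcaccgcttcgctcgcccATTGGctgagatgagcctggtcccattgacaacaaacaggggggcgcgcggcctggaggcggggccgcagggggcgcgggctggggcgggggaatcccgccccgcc
INSIG1, chr7:155297628-155297877, plus strand: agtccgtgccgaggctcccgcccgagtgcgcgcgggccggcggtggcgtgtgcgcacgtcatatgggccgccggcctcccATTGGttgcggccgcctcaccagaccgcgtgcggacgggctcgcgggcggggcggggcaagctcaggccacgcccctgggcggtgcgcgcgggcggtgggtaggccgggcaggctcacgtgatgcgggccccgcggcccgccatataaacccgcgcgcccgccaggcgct
STARD4, chr5:111512536-111512785, minus strand: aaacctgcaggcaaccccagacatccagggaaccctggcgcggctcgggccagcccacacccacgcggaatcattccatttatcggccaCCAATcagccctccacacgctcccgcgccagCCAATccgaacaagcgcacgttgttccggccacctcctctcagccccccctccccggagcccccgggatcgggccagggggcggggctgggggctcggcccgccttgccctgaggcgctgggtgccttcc
FDPS, chr1:155308616-155308865, plus strand: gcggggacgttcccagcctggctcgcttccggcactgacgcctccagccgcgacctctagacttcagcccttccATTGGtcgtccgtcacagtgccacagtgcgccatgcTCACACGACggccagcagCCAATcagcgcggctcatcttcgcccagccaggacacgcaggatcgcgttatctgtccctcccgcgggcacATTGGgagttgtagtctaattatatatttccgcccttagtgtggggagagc
HSD17B7, chr1:162790452-162790701, plus strand: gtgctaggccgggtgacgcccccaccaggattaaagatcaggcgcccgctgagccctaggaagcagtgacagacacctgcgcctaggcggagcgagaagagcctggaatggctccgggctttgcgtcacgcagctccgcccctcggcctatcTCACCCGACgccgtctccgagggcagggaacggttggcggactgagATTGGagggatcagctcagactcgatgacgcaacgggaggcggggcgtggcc

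Windows were at hand for 28 of the 30 measured members, 38 windows in all because some genes have several starts. Every match of the stricter form TCACNCCAC is also a match of TCACNCNAC. The stricter form occurred in 1 of the 38 windows, that of SREBF2, 133 bases before the start, and in 0.883% of all 35116 windows. TCACNCNAC occurred in 5 windows (13.2%), those of SREBF2, FDPS, HSD17B7, FADS2 and ACSS2, against 2.02% of all windows. CCAAT occurred in 24 of the 38 windows (63.2%), against 32.0% of all, and GGGCGG, the GC box bound by Sp1, in 34 (89.5%), against 42.6%. The motif letters were chosen with the windows in view, windows of a gene can overlap, and a match is a run of letters and not a shown site. The 5 genes with a TCACNCNAC match had differences of 0.22 for SREBF2, 0.0081 for FDPS, 0.073 for HSD17B7, 0.21 for FADS2 and 0.27 for ACSS2. None of these passed the test, and 22 of the 30 measured members had a difference above 0. PMVK and ACACA, with the largest differences of the members (0.49 and 0.42), had no match. FDPS was -0.13 without untreated replicate 2, HSD17B7 -0.071 without treated replicate 1 and ACSS2 0.00054 without treated replicate 2.

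**Figure D2:**
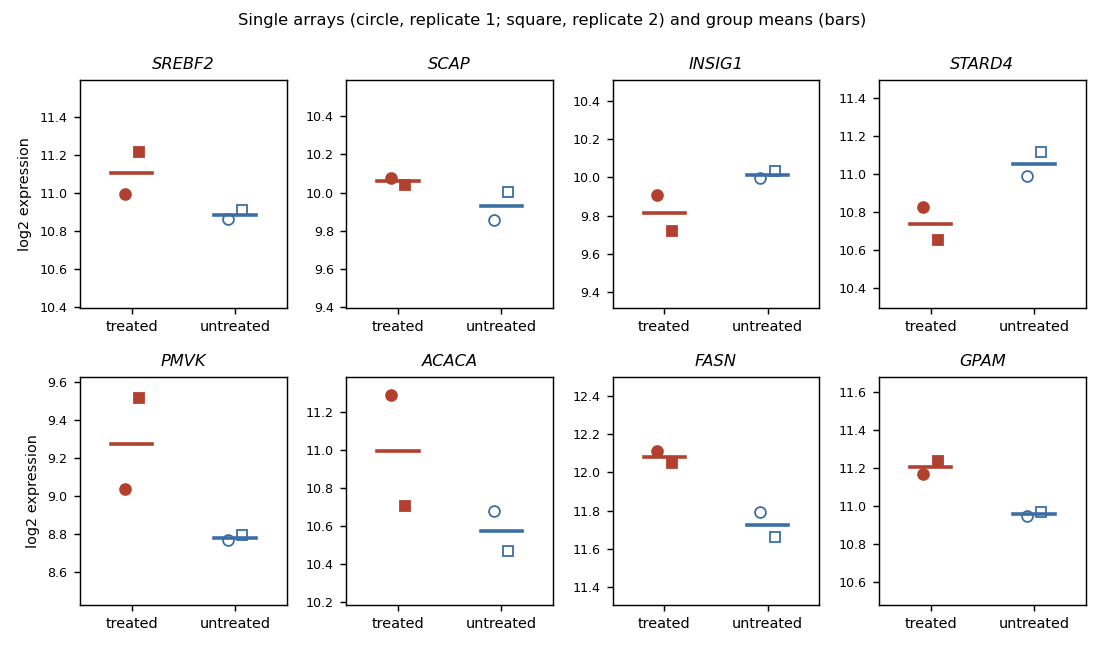
Log2 expression (y axis, each panel spanning the same range of log2 units but not starting at 0) of 4 sterol-sensing or carrier genes, PMVK and 3 fatty acid genes, with treated arrays left and untreated arrays right. Circles are replicate 1, squares replicate 2 and bars group means. All 8 genes come from the 12 of 30 members whose groups do not overlap, so no panel shows an overlap. PMVK and ACACA each have 1 treated array far above the other.

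In the fatty acid arm, the 3 genes that supply acetyl-CoA and NADPH gave no common direction. ACLY, ATP citrate lyase, which makes cytosolic acetyl-CoA from citrate, stood at 14.58 and 14.56 on the treated arrays and 14.60 and 14.63 on the untreated arrays. The groups of ACLY did not overlap, at a difference of -0.046 (interval -0.47 to 0.38). ACSS2, which makes acetyl-CoA from acetate, stood at 8.47 and 9.01 on the treated and 8.54 and 8.39 on the untreated arrays, so that treated replicate 2 carried its difference of 0.27, which was 0.00054 without it. ME1, the cytosolic malic enzyme that yields NADPH, stood at 10.89 and 10.75 on the treated and 10.94 and 10.31 on the untreated arrays. Untreated replicate 2 was the low array for ME1, and the difference of 0.20 (interval -0.40 to 0.79) was -0.12 without that array.

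The pair of enzymes that build the chain were higher on both treated arrays than on either untreated array. That held for 20.9% of the probe sets above the negative controls. ACACA, the acetyl-CoA carboxylase that makes malonyl-CoA, stood at 11.29 and 10.70 on the treated arrays and 10.68 and 10.47 on the untreated arrays. The lower treated array of ACACA exceeded the higher untreated array only slightly, and its difference of 0.42 (interval -0.16 to 1.00) was 0.13 without treated replicate 1. FASN, the fatty acid synthase, stood at 12.11 and 12.05 on the treated arrays and 11.79 and 11.66 on the untreated arrays. The difference of FASN, 0.36 (interval -0.08 to 0.79), a ratio of 1.28, exceeded the gap within either group. Differences exceeded both gaps in 20.5% of the probe sets above the negative controls. With an array left out, the difference of FASN was 0.29 to 0.42. FASN did not pass, at an adjusted p by limma of 0.948.

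Elongation, desaturation and the steps beyond gave mixed values. ELOVL6, which lengthens palmitate, stood at 13.20 and 12.93 on the treated and 13.40 and 13.03 on the untreated arrays, a difference of -0.15 (interval -0.66 to 0.36) that was 0.030 without untreated replicate 1. SCD, the stearoyl-CoA desaturase, stood at 14.47 and 14.46 on the treated and 14.65 and 14.15 on the untreated arrays. The treated values of SCD lie between its untreated values, with a difference of 0.061 (interval -0.47 to 0.59) that was -0.19 without untreated replicate 2. FADS2, the Δ6-desaturase of polyunsaturated fatty acids, stood at 15.93 and 15.98 on the treated arrays and 15.77 and 15.73 on the untreated arrays. Both treated arrays of FADS2 were higher, by 0.21 (interval -0.22 to 0.63), and the difference was 0.19 to 0.23 with an array left out. GPAM, the mitochondrial acyltransferase that starts glycerolipid synthesis, stood at 11.17 and 11.24 on the treated arrays and 10.95 and 10.97 on the untreated arrays. The difference of GPAM was 0.25 (interval -0.18 to 0.67) and was 0.21 to 0.28 with an array left out. SREBF1, which encodes the SREBPs of fatty acid synthesis, stood at 9.64 and 9.75 on the treated and 9.61 and 9.65 on the untreated arrays, with overlapping groups and a difference of 0.066 (interval -0.37 to 0.50). That of SREBF1 was 0.0087 without treated replicate 2, 0.021 after quantile normalization and 0.020 after cyclic loess.

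**Figure D3:**
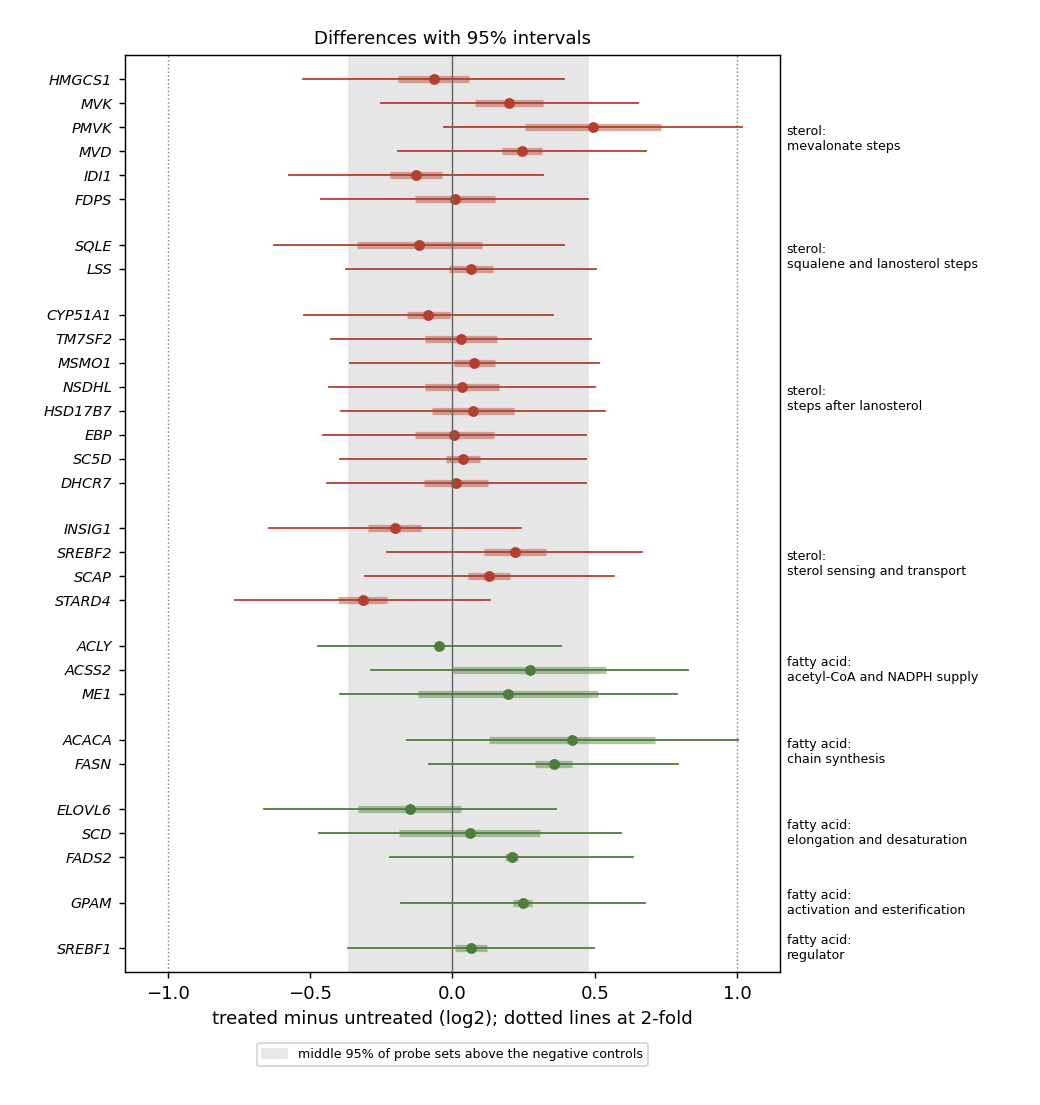
Treated minus untreated log2 difference of each measured member (dot) with its 95% limma interval (thin line) and the range over fits with an array left out (thick line), sterol genes in red and fatty acid genes in green. The grey band holds the middle 95% of probe sets above the negative controls, from -0.36 to 0.48, and the dotted lines mark 2-fold. Every interval crosses 0, and of the dots only that of PMVK lies outside the band.

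Set side by side, 14 of the 20 sterol genes and 8 of the 10 fatty acid genes had a difference above 0, 22 of 30 in all (73.3%), against 49.1% of all probe sets and 58.6% of those above the negative controls. That count was 17 after quantile normalization and 16 after cyclic loess. Groups did not overlap for 7 sterol genes, 5 higher and 2 lower, and for 5 fatty acid genes, 4 higher and 1 lower. Together these 12 of 30 (40.0%) stand near the background of 33.1%, and the 9 higher ones (30.0%) compare with 16.4% of all probe sets. The 5 higher sterol genes include MVD, which was below the negative controls. Among the 29 members above them, 11 had groups that did not overlap (37.9%), 8 higher (27.6%) and 3 lower, against 32.3% of all probe sets above the controls, 20.9% higher and 11.5% lower. On treated replicate 1 the median distance from the untreated mean was 0.053 for the sterol and 0.13 for the fatty acid genes, and on treated replicate 2 it was 0.031 and 0.13. For all 10 fatty acid genes both treated arrays lay on the same side of the untreated mean, 8 above and 2 below. Among the sterol genes 13 of 20 did so, 8 above and 5 below, and 63.8% of the probe sets above the negative controls did. These counts take in values very near 0. On treated replicate 1, ACSS2 lay 0.00054, SREBF1 0.0087 and ELOVL6 -0.018 from the untreated mean. The sterol gene TM7SF2, which is not among the 13, lay -0.0038 from it on that array. The difference between the arms was not tested, since the arms are gene lists and the arrays number 2 per group.

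Untreated replicate 1 was the lowest of the 4 arrays for 10 of the 20 sterol genes and 2 of the 10 fatty acid genes, against 23.3% of the probe sets above the negative controls. Untreated replicate 2 was the lowest for 4 sterol and 6 fatty acid genes, against 38.1%. The median of the fatty acid arm was 0.14 without untreated replicate 2 and 0.27 without untreated replicate 1, and that of the sterol arm 0.069 and 0.017. Without treated replicates 1 and 2 in turn, the fatty acid median was 0.129 and 0.125, and the sterol median 0.031 and 0.053. The members' median gap between replicates was 0.112 between the treated arrays and 0.146 between the untreated arrays, against 0.157 and 0.203 over the probe sets above the negative controls. The widest gaps between untreated arrays were 0.630 for ME1 and 0.494 for SCD, and between treated arrays 0.583 for ACACA and 0.540 for ACSS2.

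Of the 30 intervals, 28 lay within 2-fold in both directions, where 95.3% of the probe sets above the negative controls did. The exceptions were PMVK and ACACA, whose upper bounds were 1.02 and 1.003 on the log2 scale. Within 1.5-fold lay 13 of the 20 sterol genes and 2 of the 10 fatty acid genes, ACLY and SREBF1.

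**Figure D4:**
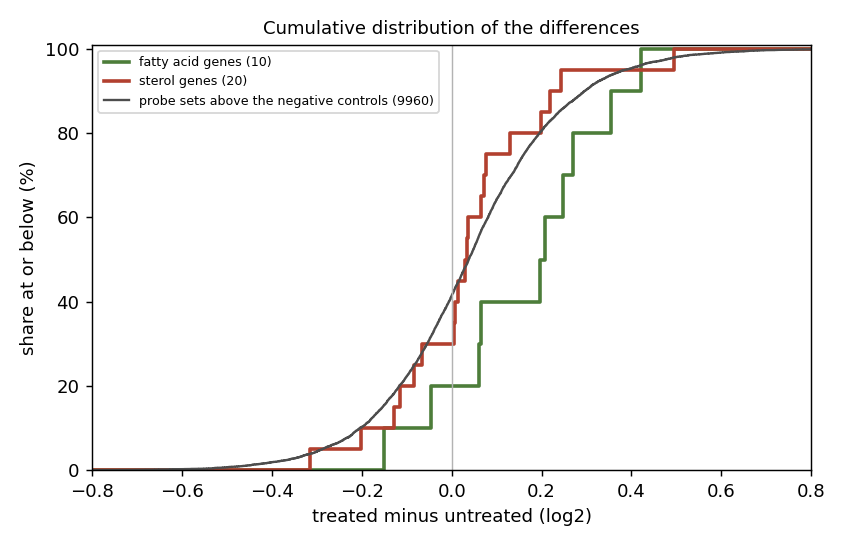
Share of genes (y axis, percent) with a treated minus untreated log2 difference at or below the value on the x axis, for the 10 fatty acid genes (green), the 20 sterol genes (red) and the 9960 probe sets above the negative controls (grey). The green line runs right of the others through the middle of the range, with a median of 0.20, whereas the sterol genes, at 0.032, stay close to the grey line, at 0.038.

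Other genes of the same pathways were drawn from lists set by function. None of the measured genes on these lists had an unadjusted p under 0.05. Of 11 measured further sterol genes, 6 had a difference above 0 and 5 below, with a median of 0.020. The negative-control limit was passed by 8 of these 11, and not by ABCA1, ABCG1 and NR1H3. INSIG2, the second INSIG gene, stood at 8.95 and 8.85 on the treated arrays and 9.11 and 9.27 on the untreated arrays. Like INSIG1, INSIG2 was lower on both treated arrays, by a difference of -0.29 (interval -0.73 to 0.15), and it did not pass (limma adjusted p = 0.949). TMEM97, a sterol-regulated membrane protein gene, had 0.31 (interval -0.33 to 0.96), which was -0.054 without untreated replicate 2. NR1H3, an oxysterol receptor, was below the negative controls on every array.

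Of 14 measured further fatty acid genes, 7 had a difference above 0 and 7 below, with a median of -0.0032. The negative-control limit was passed by 7 of these 14. SCD5, a second stearoyl-CoA desaturase, read 7.24 and 7.17 on the treated arrays and 7.06 and 6.07 on the untreated arrays, above the negative controls on 1 array. THRSP and MLXIPL, which encode lipogenic regulators of liver and fat, were below the negative controls on every array. Of 6 measured fatty acid oxidation genes 3 had a difference above 0 and 3 below, with a median of 0.021. ACADVL, the very-long-chain acyl-CoA dehydrogenase, stood at 9.43 and 9.54 on the treated arrays and 9.06 and 9.15 on the untreated arrays. Both treated arrays of ACADVL were higher, by 0.38 (interval -0.06 to 0.81, limma adjusted p = 0.948), and the difference was 0.32 to 0.43 with an array left out. The carnitine palmitoyltransferase genes CPT1A and CPT2, which act in sequence to carry acyl groups into mitochondria, had differences of 0.27 and -0.24, and their groups overlapped. CPT1A was 0.069 without treated replicate 1, and CPT2 -0.042 without untreated replicate 1.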

How the data were processed

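Total RNA of SK-N-AS cells was hybridised to 4 Affymetrix arrays, 2 treated and 2 untreated. The values deposited by the authors are on a log2 scale, as their range shows. Per the submitters' processing notes they were made with Transcriptome Analysis Console 4.0.1.36 and RMA, which includes quantile normalization and therefore takes out shifts common to most genes. Of 24351 probe sets, 2903 controls were left out and 21448 were tested with no filter. The platform annotation names 17709 with 1 symbol, 0 changed by RefSeq (GRCh38.p14), and leaves 3739 unnamed. Each measured member had 1 probe set.

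Groups were compared in R 4.3.3 by limma 3.58.1 (lmFit, eBayes; group alone as a term; two-sided), with 95% intervals and Benjamini-Hochberg adjustment over all 21448 at 0.05. Residual degrees of freedom were 2 and prior ones 4.90. The fit was also run on simulated data, whose outcome is not given here and is not relied on. An exact permutation test of 2 arrays against 2 cannot give a two-sided p below 0.333. Values on every array are given for the 3 members with the smallest p in each arm, those whose groups do not overlap and a fixed set of key enzymes and regulators, and each other list is represented by at most 3 genes, those of smallest p. ACSS2, ME1 and the genes of the marker check named with values fall outside this rule and were chosen after their values were seen. The members and lists were chosen with earlier results of these data known. Promoter windows are RefSeq's, and coordinates are given for them only. Alternatives were other normalizations, filters on dim probe sets, trended or robust variances, a block for the replicate number, array weights, leaving out each array and averaging probe sets.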

Additional observations from a re-analysis of the deposited data

How the results depend on the processing

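Across the 14 other settings no probe set passed at an adjusted p under 0.05 in limma. The smallest adjusted p was 0.331 to 1.00 and the count at an unadjusted p under 0.05 was 509 to 2444. The sterol median of 0.032 was -0.012 after quantile normalization and -0.012 after cyclic loess, and 0.017 to 0.069 with an array left out. The fatty acid median was 0.13 to 0.27 with an array left out, and 0.17 after quantile normalization or cyclic loess. The count of members whose groups do not overlap, 12 with all arrays, was 17 to 27 with an array left out, since a single array overlaps less easily. The filters, the other variance estimates, the block, array weights and averaging, 7 of the 14 settings, leave the difference of every member they keep as it is. Either filter drops MVD, which leaves 21 members higher, 11 whose groups do not overlap and a sterol median of 0.030. Of the 20 genes given by array under the naming rule, 14 kept their sign in the 7 settings that can change a difference. The rule takes in the 12 members whose groups do not overlap, and leaving out an array cannot turn the sign of these. Of the rest, CYP51A1 and SREBF1 kept their sign and 6 did not. DHCR7 was -0.015 after quantile normalization and -0.021 after cyclic loess. With an array left out, DHCR7 was -0.098 to 0.13, ELOVL6 -0.33 to 0.030, HMGCS1 -0.19 to 0.058, LSS -0.013 to 0.14, SCD -0.19 to 0.31 and SQLE -0.33 to 0.10. The causes of these shifts were not tested beyond the arrays and settings named. The labels number the replicates 1 and 2 in both groups, but same-numbered arrays did not deviate together (correlation -0.00085 over all probe sets and 0.022 over those above the negative controls), so the numbers were not taken as pairs. With the replicate number as a block, 0 probe sets passed (smallest adjusted p 0.929, 1079 at an unadjusted p under 0.05); in this balanced design the block cannot move a difference, a median or an overlap. Signal over background limits MVD, which had no array above the negative controls.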
